A study of Mus musculus with 2 samples.

Results

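The miR-15/16 family of microRNAs (miRNAs) was followed in hindbrain of mouse embryos at embryonic day 12.5, through the 6 genes Mir15a, Mir15b, Mir16-1, Mir16-2, Mir195a and Mir497b. They were taken by gene symbol from tables of 1973 miRNA genes. The tissue came from embryos of the B6NCrl strain of both sexes, with no treatment or mutation named in the labels. Its 2 small RNA libraries form 1 group, and the labels describe them as biological replicates 1 and 2, made from pools of 120 and 88 embryos. Both pools carry the same donor label, so nothing beyond the replicate numbers and pool sizes shows them to be separate, and the p-values below cover sampling of reads in these libraries only. A pool averages over many embryos and over every cell type of the dissected tissue. In such bulk tissue, fewer cells of a type and less RNA per cell cannot be told apart.

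MicroRNAs are cut from hairpin precursors, and bases 2 to 8 of the mature strand, the seed, pair with target messenger RNAs and lower their output. The miR-15/16 family is known for restraining the cell cycle through targets such as the G1 cyclins and cyclin-dependent kinases and the checkpoint kinase Chek1. In human chronic lymphocytic leukaemia the cluster of miR-15a and miR-16 is often deleted. In mouse, miR-195 and miR-497 are known from heart and skeletal muscle, where they accompany exit from the cell cycle, and the hindbrain at this stage holds dividing progenitors beside young neurons.

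The family's mature 5p arms are shown first, since a shared seed is what defines it, and miR-497b, from the member Mir497b, is listed after them. The letters are RefSeq's on GRCm38.p6, 5′ to 3′, with the seed in capitals.
miR-15a-5p (chr14:61632075-61632096, minus strand): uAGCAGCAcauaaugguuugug
miR-15b-5p (chr3:69009775-69009796, plus strand): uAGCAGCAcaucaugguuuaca
miR-16-5p (chr14:61631936-61631957, minus strand, and chr3:69009918-69009939, plus strand): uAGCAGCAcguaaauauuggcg
miR-195a-5p (chr11:70235062-70235082, plus strand): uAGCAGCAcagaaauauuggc
miR-497a-5p (chr11:70234730-70234751, plus strand): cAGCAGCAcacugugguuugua
miR-497b (chr11:70234763-70234786, minus strand): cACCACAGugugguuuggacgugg

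Mature sequences of all 6 members were found in the RefSeq table. The seed is the same in miR-15a, miR-15b, miR-16, miR-195a and miR-497a, and the arms differ outside it. Counted from 1 at the 5′ end, miR-15a-5p and miR-15b-5p differ at 4 positions, which are A12C, G20A, U21C and G22A. MiR-16-5p and miR-195a-5p are the closest pair, with the differences G10A and U11G over 21 compared bases. MiR-497b has another seed and lies on the strand opposite to miR-497a, so the member Mir497b belongs to the family by its place and not by its own mature sequence. Among 1679 mature mouse miRNAs in the RefSeq table, 10 sequences from 11 genes carry the family seed. None of the 3p arms of the members has it.

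The genes lie in 3 clusters of neighbouring hairpins on the GRCm38 assembly. Mir15a (ENSMUSG00000093007.1, chr14:61632027-61632110) and Mir16-1 (ENSMUSG00000092995.1, chr14:61631880-61631972) lie 54 bases apart within Dleu2, a long noncoding RNA gene on the minus strand. Mir15a is intronic there and Mir16-1 overlaps an annotated exon. Mir15b (ENSMUSG00000065580.1, chr3:69009772-69009835) and Mir16-2 (ENSMUSG00000065606.1, chr3:69009902-69009996) lie 66 bases apart in an intron of Smc4, which encodes a subunit of the condensin complexes that compact chromosomes for mitosis. Mir195a (ENSMUSG00000065411.2, chr11:70235042-70235135) has no annotated host gene on its strand in GENCODE M21, and it lies 241 bases from Mir497 (chr11:70234717-70234800). Mir497b (ENSMUSG00000070109.2, chr11:70234692-70234816) is on the opposite strand and covers all 84 bases of Mir497.

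**Figure D1:**
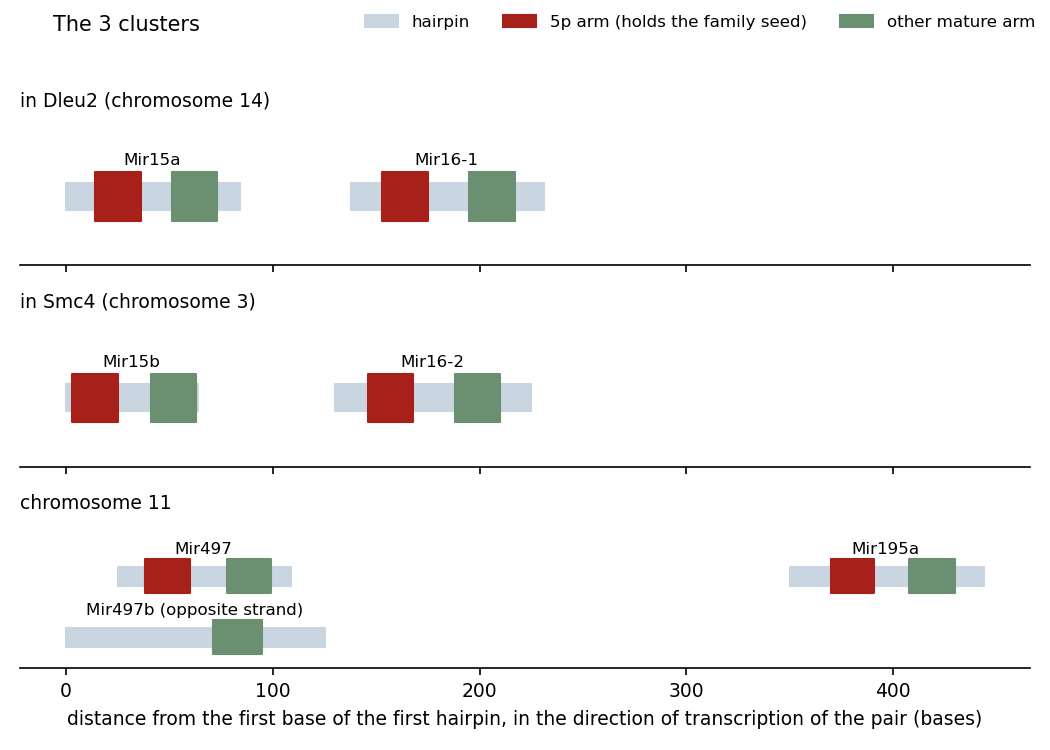
Map of the 3 clusters to scale. The horizontal axis gives distance in bases from the first hairpin base met in the direction in which the pair is transcribed. On chromosome 11 that base belongs to Mir497b, and Mir497 starts at 25. Each pair of partners is separated by 54, 66 or 241 bases, and Mir497b lies over Mir497 on the opposite strand.

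A count here is a read placed at a single genomic position on the strand of the gene, and a level is counts per 1000000 counts assigned to miRNA genes (CPM). The libraries held 2764276 and 3946444 assigned counts. A read is taken as a whole small RNA, and both arms of a hairpin add to the gene's count, so a mature strand was not measured by itself. Reads that match several positions were in no gene, and they made up 32.7% and 33.4% of the reads. This touches the miR-16 genes, because Mir16-1 and Mir16-2 carry the same miR-16-5p. Their hairpins are shown with the longest identical run in capitals.
Mir16-1 hairpin (chr14:61631880-61631972, minus strand): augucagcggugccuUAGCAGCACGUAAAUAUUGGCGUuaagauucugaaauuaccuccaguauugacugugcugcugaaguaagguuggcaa
Mir16-2 hairpin (chr3:69009902-69009996, plus strand): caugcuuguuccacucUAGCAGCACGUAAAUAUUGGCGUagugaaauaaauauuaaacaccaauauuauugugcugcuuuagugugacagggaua

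The identical run has 23 bases and holds the whole 22 bases of miR-16-5p. A read that ends within it fits both genes and is not in either count, whereas reads of the 3p arms can be told apart, since the 3p arms share at most 9 bases in a row.
miR-16-1-3p (chr14:61631894-61631915, minus strand): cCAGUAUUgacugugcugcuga
miR-16-2-3p (chr3:69009960-69009981, plus strand): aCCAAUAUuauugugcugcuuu
The counts of Mir16-1 and Mir16-2 are therefore no measure of miR-16 as a whole in the hindbrain. The other members share no identical run of 20 bases with another miRNA hairpin. Their longest runs were 13 bases for Mir15a, 12 for Mir15b, 16 for Mir195a and 12 for Mir497b.

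Mir15a led the family by single-position reads in both libraries, followed by its cluster partner Mir16-1. Mir15a had 10586 counts or 3829.6 CPM in replicate 1 and 14320 counts or 3629 CPM in replicate 2, a mean of 3729 ± 142 CPM (SD, n = 2, as for all means here). Mir16-1 had 6472 counts or 2341 CPM in replicate 1 and 10605 counts or 2687 CPM in replicate 2, a mean of 2514 ± 245 CPM. The lead of Mir15a over Mir16-1 was present in both libraries, and their ranges did not overlap. In the order of all 1973 genes by mean level, Mir15a stood at place 55 and Mir16-1 at place 67.

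The Smc4 cluster was lower, and here too the miR-15 gene exceeded the miR-16 gene, by counts that leave out reads fitting both miR-16 genes. Mir15b had 4149 counts or 1501 CPM in replicate 1 and 4555 counts or 1154 CPM in replicate 2, a mean of 1328 ± 245 CPM. Mir16-2 had 1470 counts or 532 CPM in replicate 1 and 2485 counts or 629.7 CPM in replicate 2, a mean of 581 ± 69.2 CPM. Mir15b and Mir16-2 did not overlap, and both lay below Mir16-1 in both libraries.

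Mir195a was the lowest member with a clear signal. It had 1050 counts or 379.8 CPM in replicate 1 and 1427 counts or 362 CPM in replicate 2, a mean of 371 ± 12.9 CPM. Mir195a stood at place 150 of the 1973 genes.

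Mir497b itself was close to absent on its own strand, while the reads at its locus lay on the strand of Mir497. Mir497b had 3 counts or 1.09 CPM in replicate 1 and 1 count or 0.253 CPM in replicate 2. Both values lie at or under the 3 counts that a count of 0 allows, a floor of 1.09 CPM for replicate 1 and of 0.760 CPM for replicate 2. On the opposite strand the row held 1333 counts or 482 CPM in replicate 1 and 1793 counts or 454 CPM in replicate 2, a mean of 468 ± 19.7 CPM, which is read here as Mir497. The opposite strand gave 99.8% of the row's reads in replicate 1, with an exact 95% binomial interval (Clopper-Pearson) of 99.3% to 99.95%. In replicate 2 it gave 99.9%, with bounds of 99.7% and 99.999%. These intervals, and the others given here, cover counting error only. Over all miRNA genes the opposite strand held 2.38% and 2.35% of the counts in replicates 1 and 2. Mir497b was among 11 genes with more opposite than own counts in both libraries, out of 13 genes with at least 10 opposite counts in both, and it stood at place 8 of these 11 by level on the opposite strand. Mir195a had 2 opposite counts in replicate 1 and 0 in replicate 2, and Mir15a, Mir15b, Mir16-1 and Mir16-2 had 0 in both.

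**Figure D2:**
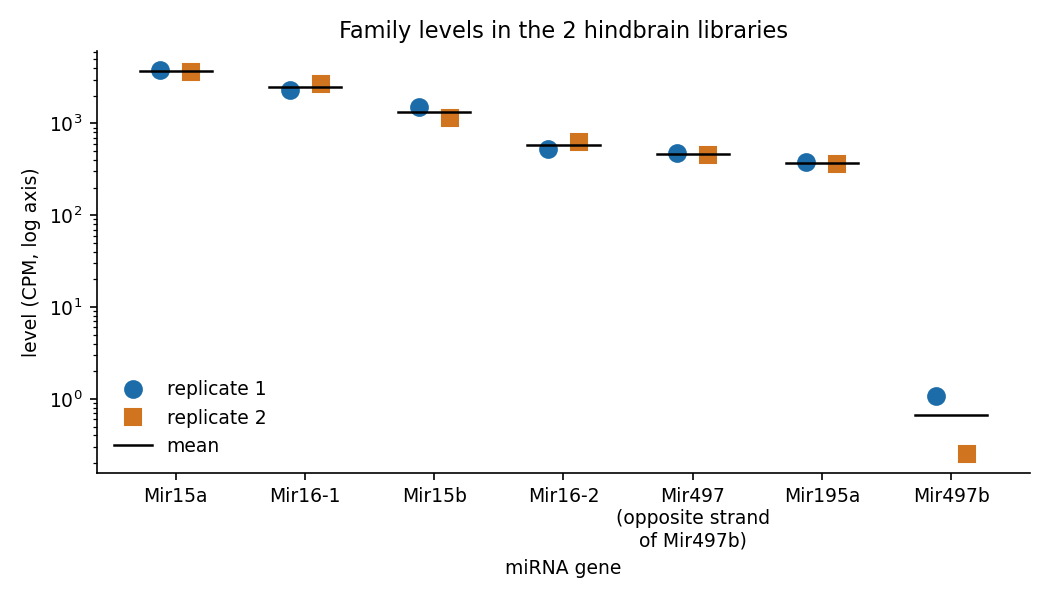
Level of each family gene in CPM on a log axis, with a point for each library and a line at the mean of the 2 libraries. The order runs from Mir15a at 3729 CPM down to Mir195a at 371 CPM, and Mir497b is at 1.09 and 0.253 CPM while the reads opposite to it, at Mir497, average 468 CPM.

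By mean level on the strand of the gene, the order was Mir15a, Mir16-1, Mir15b, Mir16-2, Mir195a and Mir497b. Mir16-1 and Mir16-2 are placed by counts that leave out reads fitting both genes. The order was sorted on these same levels, and in all 5 of its neighbouring pairs the ranges over the libraries did not overlap. The order and the 5 separated pairs were the same when CPM was divided by hairpin length. With Mir497 read from the opposite strand, it fell between Mir16-2 and Mir195a. Mir497 lay below Mir16-2 and above Mir195a in both libraries. The order was not tested, since with 2 libraries the smallest p of an exact sign-flip test, two-sided, is 0.5.

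The 6 members together held 0.858% of the assigned counts in replicate 1, with a 95% interval of 0.848% to 0.869%, and 0.846% in replicate 2, with bounds of 0.837% and 0.855%. This is a mean of 0.852% ± 0.00870. With the reads at Mir497 in place of those on the strand of Mir497b, the mean was 0.899% ± 0.0106. Of these family reads, the Dleu2 cluster gave 68.1% in replicate 1 and 70.8% in replicate 2. The Smc4 cluster gave 22.4% and 20.01%, and Mir195a with Mir497 gave 9.51% and 9.15%. The shares of the 3 clusters, by single-position reads, were far apart in both libraries. A total of 5 of the 6 members reached 10 counts in each library, the minimum set here for detection, and all 5 lay above 183 CPM, the median of the 371 detected genes. Mir16-1 and Mir16-2 were 2 of the 87 detected genes whose hairpins share a run of 20 bases with another.

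Genes outside the 6 members with the same seed were led by Mir322, whose human counterpart is miR-424. Its mature arm is shown for comparison with those above.
miR-322-5p (chrX:53054306-53054327, minus strand): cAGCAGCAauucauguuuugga
Mir322 had 19078 CPM in replicate 1, or 4.98 times Mir15a, and 22188 CPM in replicate 2, or 6.11 times Mir15a. Together the members, Mir497 and Mir322 held 2.81% of the counts in replicate 1 and 3.11% in replicate 2, so most single-position reads from hairpins with this seed came from Mir322. Mir195b, Mir6342, Mir6353 and Mir6419, the other 4 genes in the tables with the seed, had 0 counts in both libraries on either strand, which allows up to 1.09 and 0.760 CPM.

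Hairpins of a cluster are usually cut from a shared primary transcript. The ratio of their counts within a library, like that of any genes, does not depend on scaling between libraries. In the Dleu2 cluster the ratio of Mir15a to Mir16-1 was 1.64 in replicate 1 (95% counting interval 1.59 to 1.69) and 1.35 in replicate 2 (1.32 to 1.38). In the Smc4 cluster the ratio of Mir15b to Mir16-2 was 2.82 in replicate 1 (2.66 to 2.997) and 1.83 in replicate 2 (1.75 to 1.93). In both clusters the counts of the miR-15 gene exceeded those of the miR-16 gene, and by more in replicate 1 than in replicate 2, with intervals that did not overlap. The miR-16 counts leave out reads that fit both miR-16 genes, so these ratios do not compare miR-15 with miR-16 as a whole. The ratio of Mir195a to Mir497 was 0.788 in replicate 1 (0.726 to 0.855) and 0.796 in replicate 2 (0.742 to 0.854). This ratio was thus the same in both libraries within counting error. Both intervals lay below 1, with Mir195a the lower of the pair.

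**Figure D3:**
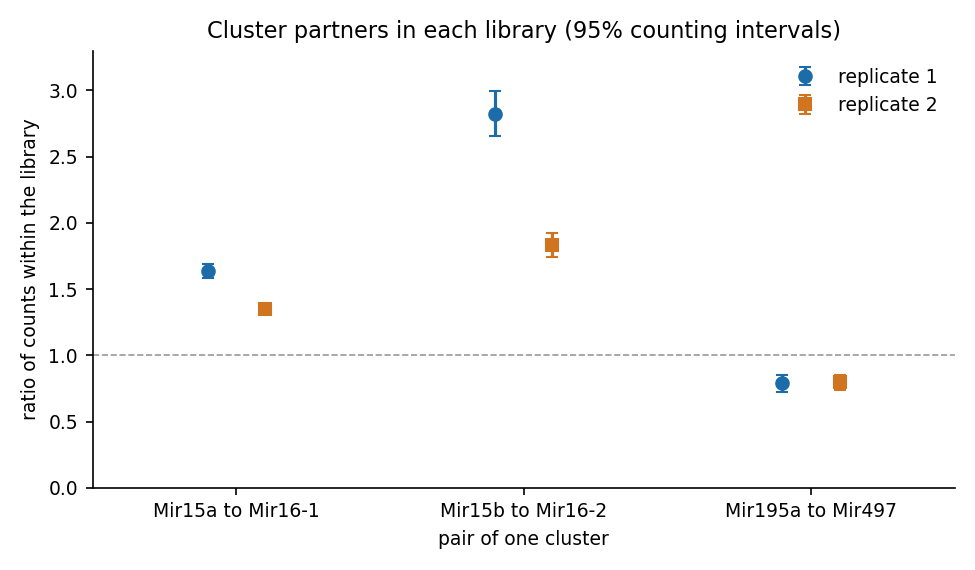
Ratio of counts between the partners of each cluster in each library, with 95% counting intervals and a dashed line at 1. The ratio of Mir15b to Mir16-2 was 2.82 in replicate 1 and 1.83 in replicate 2, while the ratio of Mir195a to Mir497 was nearly the same in both.

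The same change of ratio can be set beside that of other miRNA neighbours, a comparison chosen after the ratios were seen. Among 65 pairs of neighbouring detected miRNA genes on a strand, at most 1000 bases apart, 14 pairs or 21.5% had ratios that differed by at least 1.5-fold between the libraries. Mir15b and Mir16-2 were 1 of these 14, with a 1.54-fold difference and place 10 of the 65. Mir15a and Mir16-1 differed by 1.21-fold and stood at place 32, near the median of the 65 pairs, whose absolute log2 change was 0.26 against 0.28 for Mir15a and Mir16-1. Pairs that hold a gene with a shared run of 20 bases, as both of these do, reached 1.5-fold in 8 of 27 cases (29.6%), and the remaining pairs in 6 of 38 cases (15.8%). The part of shared reads in these changes was not tested. Pairs of a larger cluster share genes with each other, so these counts describe the libraries only.

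Across the clusters, the paralogous genes could be compared as well. The ratio of Mir16-1 to Mir16-2 was 4.40 in replicate 1 (95% counting interval 4.16 to 4.66) and 4.27 in replicate 2 (4.08 to 4.46). The ratio of Mir15a to Mir15b was 2.55 in replicate 1 (2.46 to 2.65) and 3.14 in replicate 2 (3.04 to 3.25). The miR-16 genes thus kept their ratio within counting error between the libraries, and the miR-15 genes did not. The miR-16 ratio leaves out reads that fit both genes, so the ratios of the miR-16 and miR-15 genes are not like measures.

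Between the libraries the family's summed share was nearly level, while its members differed in both directions. The level of Mir15b was lower in replicate 2, at 0.769-fold that of replicate 1 (95% counting interval 0.737 to 0.802), the largest difference among the 5 members tested. Mir16-1 was 1.15-fold higher in replicate 2 (1.11 to 1.18) and Mir16-2 was 1.18-fold higher (1.11 to 1.26). Mir15a was at 0.948-fold (0.924 to 0.972), Mir195a at 0.952-fold (0.878 to 1.03) and Mir497, by its reads on the opposite strand, at 0.942-fold (0.877 to 1.01). The intervals of Mir195a and Mir497 include 1.

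The counts of the libraries were compared by an exact binomial test, two-sided, with Benjamini-Hochberg adjustment over 393 genes. Of the 5 tested members, 0 passed both an adjusted p of 0.05 and a 2-fold difference, against 3.56% of all genes tested. At 1.5-fold the count was again 0 of 5, against 9.92% of all genes tested. Without a minimum fold, 4 of 5 members were called, 2 higher and 2 lower in replicate 2, against 51.7% of all genes tested, and the same 4 had an unadjusted p under 0.05. These were Mir15b (adjusted exact p = 2.83e-33), Mir16-1 (9.19e-18), Mir16-2 (8.86e-07) and Mir15a (7.48e-05). Mir195a was not called (adjusted exact p = 0.330). The test weighs sampling of reads alone and compares these libraries, not conditions. The median absolute log2 ratio was 0.20 over the 5 tested members and 0.24 over all 393 genes. Mir15b, with a log2 ratio of -0.38, lay farther from 0 than 68.4% of all genes tested, and Mir195a farther than 13.2%.

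**Figure D4:**
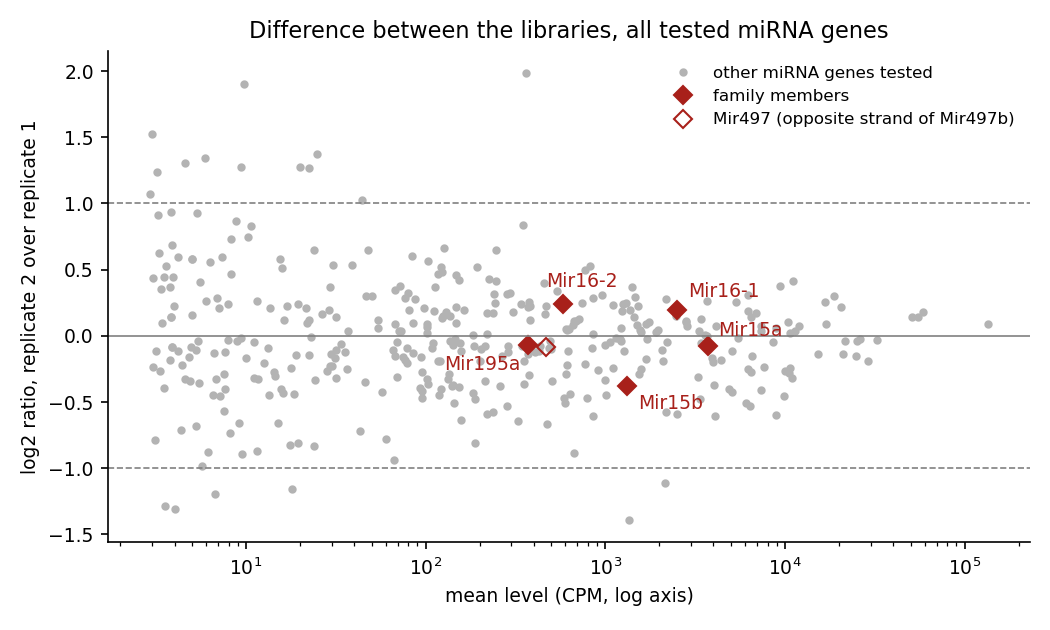
Log2 ratio of replicate 2 over replicate 1 against mean level in CPM (log axis) for the 393 tested miRNA genes, with family members in red and dashed lines at a 2-fold difference. The members lie within the cloud of other genes, from -0.38 for Mir15b to 0.24 for Mir16-2 on the log2 scale.

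In proportion to its summed level, each marker list differed between the pools by more than the family did. The family's sum was nearly level because its members differed in both directions, so exceeding it sets no list apart. Among the marker lists, the median log2 ratio of replicate 2 over replicate 1 was highest for striated muscle (1.27) and lowest for epithelium (-0.81). The part of other cell types in the family's differences was not tested. Hindbrain markers were present, led by the Hox cluster miRNA Mir10a at 26347 and 25880 CPM in replicates 1 and 2, and 4 of the 7 measured were detected. The miR-9 and miR-124 genes on that list have identical copies, and Mir9-3 had 367 and 398 CPM. For striated muscle, 5 of 8 measured markers were detected, with a summed level of 174 CPM in replicate 1 and 644 CPM in replicate 2, while Mir1a-1 and Mir133a-1 had 0 counts. The epithelial list, with 7 of 7 detected, summed to 9659.7 CPM in replicate 1, and in replicate 2 to 6469.9 CPM. Mir429 and Mir200c were called lower there (log2 ratios of -1.12 and -1.39). Mir200b (-0.89) and Mir141 (-0.81) were also lower but did not reach 2-fold. Mir203 (-0.05), Mir200a (-0.03) and Mir205 (0.20) differed less. The median of this list was -0.81, and its genes were set out in this way after their values were seen. The smooth muscle and pericyte markers Mir143 and Mir145a summed to 8348 and 10834 CPM, and Mir126a of endothelium had 25987 and 23442 CPM. The mesenchyme list, with 4 of 4 detected, summed to 12931 and 10846 CPM, although its median log2 ratio of replicate 2 over replicate 1 was 0.51. The erythroid list, with 3 of 3 detected, summed to 298 and 355 CPM with a median log2 ratio of -0.01, and the leukocyte list, with 3 of 3 measured members detected, summed to 519.8 and 432 CPM. In the muscle list, 4 of the 5 tested genes were called higher in replicate 2 with the 2-fold minimum. Calls in either direction made up 3.56% of all genes tested. Mir206, at 146 and 579 CPM in replicates 1 and 2, made up most of the summed muscle level. The other called genes, Mir208b, Mir499 and Mir133b, had only 36, 11 and 15 counts in replicate 1. Mir208a, the remaining tested gene, was lower in replicate 2 (log2 ratio of -0.33) and was not called.

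Summed over single-position reads, the Mir17 and let-7 lists, other miRNAs known to act on the cell cycle, held more counts than the family. The Mir34 and Mir449 genes held a similar sum. The lists differ in size, and the median level of their detected genes gave another order. It was 1328 CPM for the members, 1100 CPM for the Mir17 list, 670 CPM for let-7 and 64.4 CPM for the Mir34 and Mir449 genes. The members' 0.858% and 0.846% of the counts in replicates 1 and 2 stood against 10.9% and 12.03% for the Mir17 cluster and its paralogs, which promote proliferation. Mir17 (48251 and 53339 CPM) and Mir20a (16839.5 and 20763 CPM) led that list. The let-7 genes, which favour differentiation, held 4.49% and 4.26%, from 10 measured genes led by Mirlet7g (22161 and 20109.5 CPM) and Mirlet7i (16520.1 and 17537 CPM). The Mir34 genes are known as p53 targets and the Mir449 genes from multiciliated cells. Together these 6 genes held 0.710% and 0.861%, a range that overlapped that of the members. They were led by Mir449a (5582 and 6929 CPM) and Mir34c (1368 and 1506 CPM). With the 2-fold minimum, 0 of 5 members were called between the libraries, against 0 of 15 genes of the Mir17 list, 0 of 10 let-7 genes and 1 of 6 Mir34 and Mir449 genes. Over all genes tested the share was 3.56%, so in lists of this size the counts set no list apart. That gene was Mir449c, higher in replicate 2, named for its call after its values were seen. The median log2 ratio was -0.07 over the tested members, 0.05 over the Mir17 list, -0.17 over let-7, 0.31 over the Mir34 and Mir449 genes and -0.04 over all genes tested. Of the detected genes, 2 members, 4 genes of the Mir17 list and 5 let-7 genes share a run of 20 bases with another hairpin, so that reads of these lists are missing to unequal degrees.

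The genes nearest to each member in level, by distance in log2(CPM + 1) over the 2 libraries, are named as a description. Mir351, a neighbour of Mir322 on chromosome X, was nearest to Mir15a at 3688 and 3689 CPM, with a distance of 0.06, followed by Mir872. Mir381 was nearest to Mir16-1, at 2348 and 2603 CPM and a distance of 0.05, followed by Mir484. Mir494 was nearest to Mir195a, at 388 and 353 CPM and a distance of 0.04, followed by Mir7-1. Mir210 and Mir540 were nearest to Mir16-2 at distances of 0.16 and 0.17. Mir15b had no gene as close, with Mir302a at a distance of 0.20 and Mir674 at 0.29. With only 2 libraries such nearness reflects level and a like ratio between the libraries, and nothing more.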

How the data were processed

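Small RNA was sequenced from 2 pools of embryonic hindbrain, and the authors deposited whole-number counts of reads for every miRNA gene. Per the text that came with the tables, the counts rest on GENCODE M4 and alignments to mm10. For aligner, trimming and versions, nothing is given in the sources used here. The tables have no header, and the column for the gene's own strand was inferred from layout and totals. Rows naming no gene were left out. They held 15.7% and 16.2% (unmapped), 32.7% and 33.4% (several positions) and 5.12% and 4.81% (no miRNA gene on that strand) of 5947846 and 8656439 reads. Symbols and coordinates came from GENCODE M21 on GRCm38, the assembly of mm10, for 1894 of 1973 genes, with IDs matched without version. Sequences came from RefSeq on GRCm38.p6, and shared runs from GENCODE M21 hairpins in the same orientation.

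From the counts, CPM was computed over all gene rows, and detection needed 10 counts in both libraries. The exact binomial test, two-sided, took its expected share from the library totals and ran on genes whose mean count was 10 or more, with 0.5 added in ratios and Benjamini-Hochberg adjustment over all of them. The script was tested on simulated counts with known changes, in which sampling of reads was the only spread. Further spread between libraries was not part of that simulation. Alternatives used edgeR 4.0.16 (TMM) and DESeq2 1.42.0 size factors in R 4.3.3, and the rest SciPy 1.17.1, pandas 2.3.3, numpy 2.4.6 and matplotlib 3.10.9 under Python 3.11.15. With 1 library a side there is no residual spread for a model of the counts across genes.

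The members, the lists and the tests were chosen with earlier results of these data known. Named genes are the members, detected genes of the same seed, the highest 2 of each cell cycle list, the 2 nearest genes by level of each member with at least 100 counts, and markers.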

Additional observations from a re-analysis of the deposited data

How the results depend on the processing

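The share of the 6 members, 0.852% by counts on the strand of the gene, was 0.878% with both strands together, 0.899% with the reads at Mir497 in place of those of Mir497b, 0.985% without the most abundant gene in the total and 0.392% of all reads of the library. It was 0.590% over genes that share no run of 20 bases, which takes out Mir16-1 and Mir16-2, and 2.92% with Mir322 added. With both strands together all 5 neighbouring pairs of the order were still apart, but Mir497b, then holding the reads at Mir497, stood above Mir195a. The count of members called between the libraries was 0 under each scaling, pseudocount, count minimum and strand setting with the 2-fold minimum, and 0 at 1.5-fold. Without a minimum fold it was 4, with 203 of all 393 genes called. Without it, it was 4 under TMM scaling (200 of 393) and 3 under DESeq2 size factors (204 of 393), where Mir15a was not called. Those last 2 settings were added after the data were seen. Of 36 recomputed member levels, 31 stayed within 1 SD, which leaving out a library does by construction with 2 libraries. The exceptions were Mir15a, Mir16-1, Mir16-2 and Mir195a without the most abundant gene in the total, where levels moved by up to 15.6%, and Mir497b with both strands together. No paired analysis was possible because the series has 1 group. Reads that fit several positions limit what can be said of miR-16, and 2 libraries limit every comparison.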
